A study of Mus musculus with 217 samples.

Results

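The Rev-erb and Ror nuclear receptors were followed through the day in 3 parts of the mouse striatum. The members were taken by symbol: Nr1d1 and Nr1d2, which encode REV-ERBα and REV-ERBβ, and Rora and Rorb, which encode RORα and RORβ. All 4 members were in each table, among 11867 genes in the nucleus accumbens (NAc), 12101 in the dorsomedial striatum (DMS) and 11394 in the dorsolateral striatum (DLS). RNA came from 1 mm punches of C57BL/6J mice of about 10 weeks, females and males, kept with 12 h of light and 12 h of darkness. Times are zeitgeber times (ZT), in hours after lights on: ZT2, ZT6 and ZT10 fall in the light and ZT14, ZT18 and ZT22 in the dark, when mice are active. The 217 libraries came from 93 animals. Females gave 37, 34 and 35 libraries of NAc, DMS and DLS, and males 40, 36 and 35, with 5 to 7 libraries for each sex and time.

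REV-ERB and ROR proteins are transcription factors that bind the same short DNA element, the RORE. REV-ERB proteins bind haem and repress, by recruiting a corepressor with the histone deacetylase HDAC3, whereas ROR proteins activate. Together they set the rhythm of Arntl, the gene of the clock activator BMAL1, and BMAL1 with CLOCK in turn drives the Rev-erb genes through E-box elements. This loop runs in most tissues. In the brain Rora is also known from cerebellar Purkinje cells and thalamus, and Rorb from retina and from neurons of the middle layers of the cortex.

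Upstream DNA of the members is shown first because the results separate the Rev-erb genes, whose transcripts cycled, from the Ror genes, whose transcripts did not pass the test. The runs are the 250 bases before the annotated start (RefSeq, build GRCm38.p6), written 5′ to 3′ along each gene. All lie on the minus strand: Nr1d1 at chr11:98775378-98775627, Nr1d2 at chr14:18239107-18239356, and the downstream of 2 annotated Rorb starts at chr19:19001118-19001367. Capitals mark a match to a motif searched on both strands.
Nr1d1: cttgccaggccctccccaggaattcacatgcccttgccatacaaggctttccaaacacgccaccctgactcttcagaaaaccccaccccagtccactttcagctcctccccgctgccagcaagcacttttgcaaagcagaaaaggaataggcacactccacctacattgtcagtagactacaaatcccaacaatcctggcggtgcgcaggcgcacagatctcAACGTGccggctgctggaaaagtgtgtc
Nr1d2: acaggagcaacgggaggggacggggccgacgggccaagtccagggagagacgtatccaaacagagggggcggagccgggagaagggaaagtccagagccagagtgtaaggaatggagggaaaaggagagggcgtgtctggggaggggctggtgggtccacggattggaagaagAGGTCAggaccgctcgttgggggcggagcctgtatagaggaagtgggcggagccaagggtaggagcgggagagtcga
Rorb, downstream start: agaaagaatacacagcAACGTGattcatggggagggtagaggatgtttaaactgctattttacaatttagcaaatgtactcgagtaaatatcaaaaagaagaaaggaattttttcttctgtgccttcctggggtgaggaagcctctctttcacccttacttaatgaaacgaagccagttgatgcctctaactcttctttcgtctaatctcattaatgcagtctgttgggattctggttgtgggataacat
The capitals of Nr1d1 are an E′-box (CACGTT, here as its reverse complement AACGTG) 28 bases before the start, and those of Rorb the same letters 234 bases before its start. An E′-box was in 3.85% of 32851 promoters of this length. The capitals of Nr1d2 are the core of the RORE (AGGTCA) 77 bases before the start, found in 14.0% of promoters. No match was found to the E-box CACGTG (6.02% of promoters), the D-box TTATGNAA (3.07%) or the full RORE (0.332%), searched with an end of AGGTCA or GGGTCA. The same windows of Rora and of the upstream Rorb start held none of the motifs searched. A match describes letters in a window, not bound sites, and binding was not measured.

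In the annotation (GENCODE M21, GRCm38), Nr1d1 spans 7.40 kb of chromosome 11 (98767932 to 98775333, minus strand), and Nr1d2 spans 35.07 kb of chromosome 14 (18204054 to 18239127, minus strand). Rora spans 734.5 kb of chromosome 9 (68653786 to 69388246, plus strand), and Rorb 180.6 kb of chromosome 19 (18930605 to 19111196, minus strand). In all, 263 exonic bases of Nr1d1 overlap exons of Thra, the thyroid hormone receptor gene on the opposite strand. Libraries were made with a stranded kit, but no source used here says if reads were counted by strand, and those of this overlap cannot be assigned with certainty. Thra was not rhythmic in NAc, DMS or DLS (limma, adjusted p = 0.836, 0.119 and 0.419), with fitted folds of 1.05, 1.12 and 1.06. The median over DMS libraries was 1834 reads for Nr1d1 and 18654.5 for Thra.

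The tables hold log2 of normalised counts plus 1, which the authors made within 1 region at a time, so levels in different regions are not on a common scale. Reads over the listed genes ran from 35711640 to 57468484 per library in DMS and from 29719087 to 56799764 in DLS, while NAc depth could not be recovered. In DLS the lowest reads of Nr1d1, Nr1d2, Rora and Rorb were 260, 381, 277 and 167, against medians of 1499, 2898.5, 2136.5 and 1304.5. The range of totals does not show this spread. Markers of striatal projection neurons were all in each table (10 of 10), and dopamine receptor Drd1 averaged 12.39, 12.92 and 12.81 (log2) in NAc, DMS and DLS. Of 8 markers of cortical excitatory neurons, 6, 5 and 6 were in the tables of NAc, DMS and DLS. Neurod2 and Neurod6 were in none. Slc17a7 averaged 10.33 ± 2.12 (log2, SD) in NAc, 8.90 ± 1.72 in DMS and 9.84 ± 1.87 in DLS, so this marker was present and uneven between libraries. Lamp5 varied less, with SDs of 0.35, 0.22 and 0.17. The summed level of the 5 markers in all 3 tables lay between -6.13 and -2.51 (log2) relative to the striatal markers over NAc libraries, -7.03 and -4.19 in DMS and -7.82 and -3.34 in DLS. Of 6 thalamic markers 4, 3 and 3 were present, with Slc17a6 and Gbx2 in none, at -9.67 to -6.23, -8.99 to -7.45 and -9.13 to -8.26. Their part in the Ror values was not tested. DMS libraries fell into 2 classes by the share of mitochondrial ribosomal RNA in their counts, 37 at 19.02 to 29.9% and 33 at 35.3 to 52.6%. The higher class held 3, 4, 7, 7, 10 and 2 of the libraries of ZT2, ZT6, ZT10, ZT14, ZT18 and ZT22, so class and time are partly entangled, and DMS values are also given with a term for the class.

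Per kilobase of exon, the Rev-erb transcripts were more abundant than the Ror transcripts in all 3 regions. In DLS the median normalised count per kb was 551.9 for Nr1d2 (lowest 258.3, highest 793.6), 496.0 for Nr1d1 (225.8 to 901.4), 156.8 for Rora (126.0 to 196.1) and 114.7 for Rorb (88.1 to 159.8). The order was the same in DMS, at 626.2, 594.8, 185.4 and 162.0. In NAc it was 553.2 for Nr1d2, 370.3 for Nr1d1, 109.3 for Rorb and 108.4 for Rora. Neighbours in the order overlapped within each pair: Nr1d2 with Nr1d1, and Rora with Rorb, in every region. Every library had more Nr1d1 per kb than any had Rora or Rorb in DMS and DLS, whereas in NAc the lowest Nr1d1 value (140.4) lay below the highest Rorb value (174.3). The length used is the union of all annotated exons (3.08 kb for Nr1d1, 5.41 for Nr1d2, 13.07 for Rora, 11.08 for Rorb), which understates the level of a gene whose shorter forms prevail. Within each table, Nr1d2 stood above 84.3, 84.1 and 85.3% of genes per kb in NAc, DMS and DLS, and Rora above 39.3, 52.3 and 53.8%.

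Nr1d1 had its highest median in the light phase and its lowest at ZT22 in every region. In DLS its level (log2 normalised count) was 11.28 at ZT10 (median of 11 libraries, 11.05 to 11.44) and 9.67 at ZT22 (12 libraries, 9.44 to 10.05). All libraries of ZT10 were higher than all of ZT22, and the medians differed by 3.06-fold. Between these times the medians were 10.35 at ZT2, 10.97 at ZT6, 10.92 at ZT14 and 10.22 at ZT18. In DMS the level was 11.45 at ZT10 (11 libraries, 11.21 to 11.73) and 10.13 at ZT22 (12 libraries, 9.58 to 10.61), again without overlap, a 2.495-fold difference of medians.

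In NAc the course of Nr1d1 was flatter and the libraries more spread. The median was 10.58 at ZT6 (13 libraries, 10.09 to 10.96), 10.56 at ZT10, 10.51 at ZT14 and 9.80 at ZT22 (14 libraries, 8.76 to 10.14), so that the highest and lowest times overlapped and 11 of 13 libraries of ZT6 lay above all of ZT22. The SD within groups of sex and time was 0.37 in NAc against 0.23 in DMS and 0.24 in DLS.

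Nr1d2 had its highest median at ZT14 in every region and stayed high into the dark. In DLS its level was 11.81 at ZT14 (12 libraries, 11.53 to 12.07) and 11.11 at ZT2 (11 libraries, 11.001 to 11.41), with no overlap and a 1.63-fold difference of medians. The medians of ZT10 and ZT18 were 11.75 and 11.72, so the transcript held a plateau over these 3 times. In DMS it was 12.12 at ZT14 (11 libraries, 11.79 to 12.33) and 11.17 at ZT22 (12 libraries, 10.98 to 11.81), with 8 of 11 libraries of ZT14 above all of ZT22. The DMS plateau ran from 12.04 at ZT10 to 12.05 at ZT18. These DMS medians and counts were not adjusted for the ribosomal RNA class. Nr1d2 averaged 12.01 in the higher and 11.39 in the lower class. Of the ZT14 libraries 7 of 11 were in the higher class, against 2 of 12 for ZT22. The DMS contrast of these times therefore partly mixes time with class. In NAc the median was 11.78 at ZT14 (13 libraries, 11.57 to 12.06) and 11.34 at ZT2 (13 libraries, 11.05 to 11.63), and 12 of 13 libraries of ZT14 lay above all of ZT2.

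Rora and Rorb showed no such course. Rora medians lay between 10.98 and 11.04 (log2) over the 6 times in DLS, between 11.17 and 11.29 in DMS and between 10.41 and 10.56 in NAc. Rorb medians lay between 10.24 and 10.38 in DLS, between 10.77 and 10.90 in DMS and between 10.14 and 10.37 in NAc. The highest and lowest times of each Ror gene overlapped in every region. Of the 12 DLS libraries of ZT22, where the Rora median was highest, 1 lay above all of ZT18, where it was lowest.

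**Figure D1:**
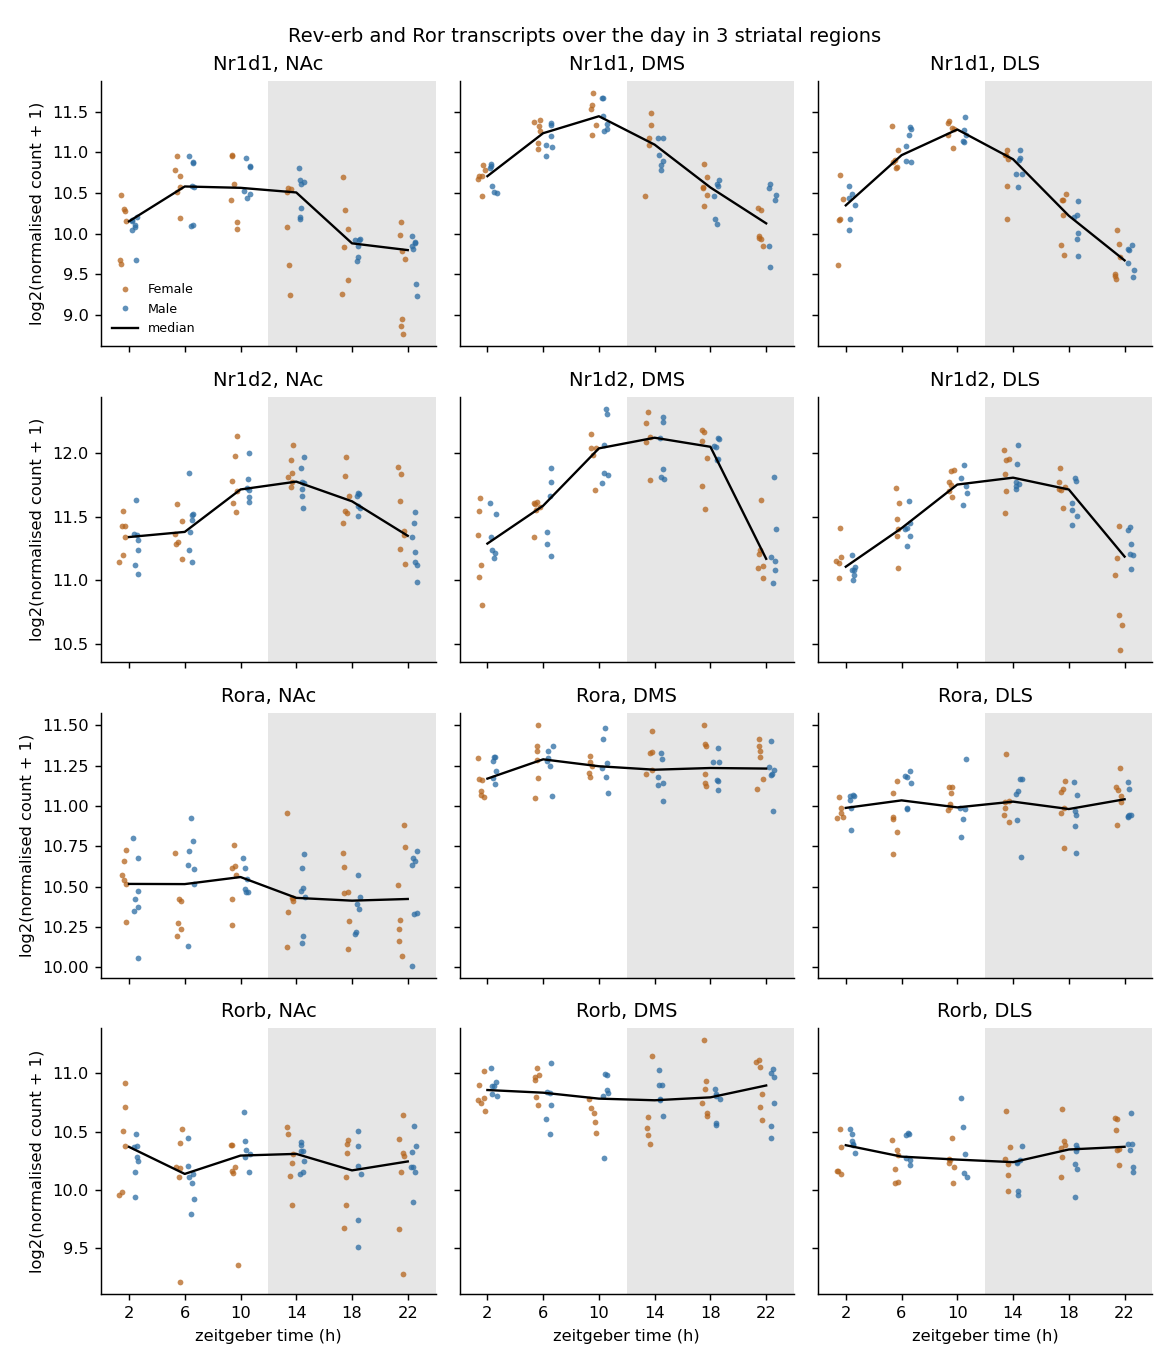
Level of each member (log2 of normalised count plus 1, vertical axis) by zeitgeber time in h (horizontal axis) in NAc, DMS and DLS; points are libraries of females and males, lines join medians of both sexes, and grey marks the dark phase. Nr1d1 is highest at ZT6 or ZT10 and Nr1d2 at ZT14, while the medians of Rora and Rorb stay within a narrow range.

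A cosine of 24 h, fitted in limma to every gene of a region with a sex term, called both Rev-erb genes rhythmic in all 3 regions and neither Ror gene in any (adjusted p, Benjamini-Hochberg, threshold 0.05). This call was met by 2.56% of all genes in NAc, 51.3% in DMS (25.2% with a term for the class) and 21% in DLS. In DMS, where so many genes passed, the calls of the Rev-erb genes are read by their size.

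For Nr1d1 the amplitude, the height of the peak over the mean, was 0.52 ± 0.06 (log2, SE) in NAc, 0.62 ± 0.04 in DMS and 0.77 ± 0.04 in DLS. Corresponding folds from trough to peak were 2.06, 2.37 and 2.91 (limma, adjusted p = 1.24e-09, 1.09e-20 and 1.34e-26). Its peak fell at ZT 8.96 ± 0.42 h (SE) in NAc, 9.37 ± 0.24 in DMS and 9.44 ± 0.19 in DLS, in the second part of the light phase. With a term for the class, the DMS amplitude was 0.63 ± 0.04.

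For Nr1d2 the amplitude was 0.27 ± 0.03 in NAc, 0.47 ± 0.04 in DMS and 0.41 ± 0.03 in DLS, with folds of 1.46, 1.92 and 1.76 (limma, adjusted p = 1.48e-09, 3.08e-14 and 1.79e-16). Its peak fell at ZT 13.3 ± 0.43 h in NAc, 13.3 ± 0.32 in DMS and 12.8 ± 0.29 in DLS, just after lights off. The DMS value moved with the class: Nr1d2 averaged 12.01 ± 0.23 (log2, SD, n = 33) in the higher and 11.39 ± 0.30 (n = 37) in the lower class. The amplitude was 0.35 ± 0.03 with a class term, 0.37 ± 0.04 in the lower class alone and 0.33 ± 0.03 in the higher class alone. These lie between the NAc and DLS values and below the DMS value without the term, and the call held in each (adjusted p = 1.06e-17, 1.11e-08 and 4.81e-09), where 25.2, 7.83 and 15% of genes passed.

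The fit over all libraries gives an upper bound for each Ror rhythm. The amplitude of Rora was 0.06 ± 0.04 (log2, SE) in NAc, 0.02 ± 0.02 in DMS and 0.01 ± 0.02 in DLS (adjusted p = 0.608, 0.638 and 0.926). The upper 95% bound allows a fold from trough to peak of 1.19, 1.09 and 1.08 in these regions. The amplitude of Rorb was 0.02 ± 0.05, 0.07 ± 0.03 and 0.06 ± 0.03 (adjusted p = 0.981, 0.173 and 0.234), with upper folds of 1.17, 1.21 and 1.19. The DMS bounds apply to the fit without a class term. With that term and 1 DMS library left out at a time, amplitudes were 0.032 to 0.047 for Rora and 0.011 to 0.035 for Rorb. Without the term they were 0.015 to 0.027 and 0.059 to 0.082. None of these fits passed (limma, lowest adjusted p = 0.0816). In NAc the 2 ranges of animal number gave larger Rorb amplitudes with peaks far apart, 0.14 ± 0.06 at ZT 6.58 h up to animal 29 and 0.16 ± 0.08 at ZT 18.9 h from animal 31. Neither passed (limma, adjusted p = 0.265 and 0.687), and their upper folds were 1.42 and 1.55, so the NAc bound of 1.17 applies to the fit over all libraries and not to either range. In DMS, scaling the libraries to an equal sum raised the amplitudes of Rora and Rorb to 0.16 and 0.24 (adjusted p = 0.0173 and 0.00459), but 77% of all genes passed under that scaling.

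**Figure D2:**
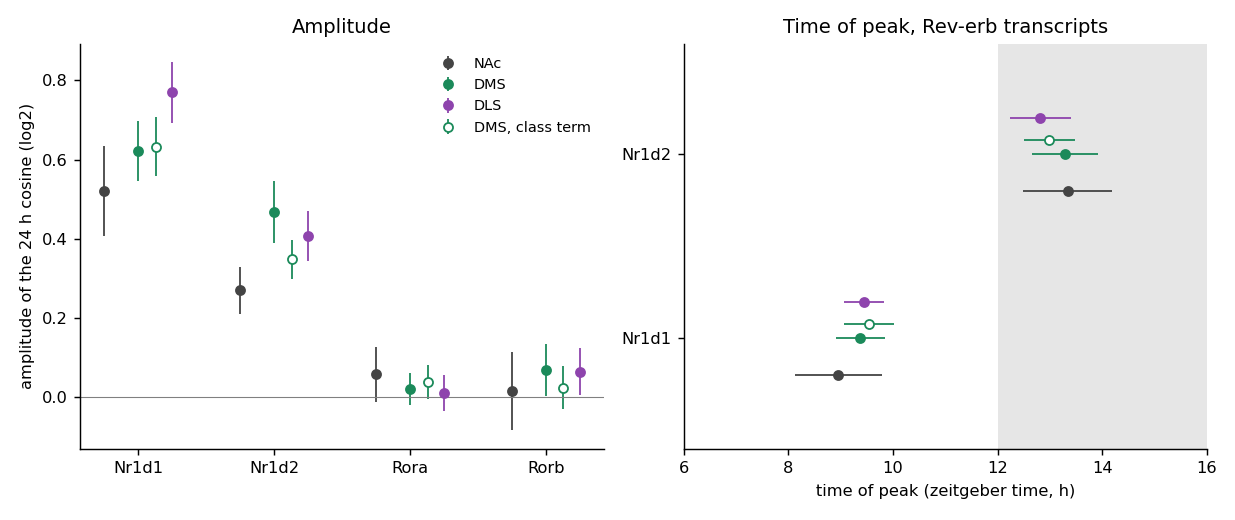
Amplitude of the 24 h cosine (log2, left) and time of peak (zeitgeber time in h, right, Rev-erb transcripts only) in NAc, DMS and DLS, with 95% intervals; open points are DMS with a term for the ribosomal RNA class and grey is the dark phase. Nr1d1 has the largest amplitudes, 0.52 to 0.77, Nr1d2 peaks about 4 h later, and the intervals of Rora and Rorb lie close to 0.

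Changes from each time to the next, with time as 6 levels in limma, show where the 2 Rev-erb courses part. In DLS, Nr1d1 rose by 0.61 ± 0.09 (log2, SE) from ZT22 to ZT2 and by 0.75 ± 0.09 from ZT2 to ZT6 (adjusted p = 6.54e-05 and 5.96e-08), steps in which 0.0439 and 0.307% of genes rose. It then fell by 0.46 ± 0.09 from ZT10 to ZT14, by 0.66 ± 0.09 to ZT18 and by 0.46 ± 0.09 to ZT22 (adjusted p = 0.00095, 1.13e-06 and 0.00159), steps in which 2.55, 1.21 and 1.8% of genes fell. The step from ZT6 to ZT10, 0.22 ± 0.09, did not pass (adjusted p = 0.379).

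Nr1d1 in DMS passed at the same 5 steps. It rose by 0.54 ± 0.09 from ZT22 to ZT2 (adjusted p = 0.00201), and was the only gene of 12101 that rose there (0.00826%). It rose by 0.52 ± 0.09 from ZT2 to ZT6 (0.322% of genes rose). It fell by 0.43 ± 0.10, 0.53 ± 0.09 and 0.36 ± 0.09 over the 3 steps from ZT10 to ZT22, in which 0.661, 0.868 and 13% of genes fell.

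Nr1d2 rose one step later and fell in one stretch. From ZT6 to ZT10 the rise was 0.36 ± 0.08 in NAc, 0.47 ± 0.09 in DMS and 0.33 ± 0.07 in DLS (limma, adjusted p = 0.0384, 0.00203 and 0.00917), a step in which 0.0337, 0.578 and 0.597% of genes rose. In DLS it also rose by 0.30 ± 0.07 from ZT2 to ZT6 (adjusted p = 0.0268). From ZT18 to ZT22 it fell by 0.75 ± 0.09 in DMS and by 0.59 ± 0.07 in DLS (adjusted p = 2.10e-08 and 4.99e-08). With a term for the class Nr1d2 in DMS rose by 0.21 ± 0.05 from ZT2 to ZT6 and by 0.35 ± 0.06 from ZT6 to ZT10 (adjusted p = 0.0148 and 2.91e-05), where 1.22 and 0.892% of genes rose. The DMS drop was then -0.49 ± 0.06 (adjusted p = 1.05e-08), a step in which 5.85% of genes fell under that term. In NAc the same step was -0.26 ± 0.07 and did not pass (adjusted p = 0.401), and no step of Nr1d1 passed there, the largest being 0.53 ± 0.14 from ZT2 to ZT6 (adjusted p = 0.17). With the ribosomal RNA share as a covariate both passed, at -0.26 and 0.57 (adjusted p = 0.0148 and 0.000407), and 0.0337% of genes passed in each of these directions. No step of Rora or Rorb passed in any region, and their estimates ran from -0.23 to 0.15.

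The calls of the NAc and DLS steps of Nr1d2 near the threshold depended on single libraries, while the estimates moved little, from 0.33 to 0.40 in NAc and from 0.28 to 0.33 in DLS. The NAc step from ZT6 to ZT10 no longer passed (limma, adjusted p up to 0.115) without any 1 of 15 libraries: females 12, 17, 18, 20, 38, 51, 52 and 53 and males 12, 16, 17, 18, 34, 38 and 40. The DLS step from ZT2 to ZT6 no longer passed without female 11, female 13 or male 15 (adjusted p up to 0.0571). With libraries scaled to an equal sum, none of the 5 steps of Nr1d1 in DMS or DLS passed. Their rises were then 0.52 and 0.47 in DMS and 0.55 and 0.53 in DLS, and their falls -0.51, -0.55 and -0.03 in DMS and -0.52, -0.64 and -0.31 in DLS, so that the DMS fall from ZT18 to ZT22 was lost in size as well. The Nr1d2 steps of DLS missed too, at 0.08, 0.51 and -0.44 for ZT2 to ZT6, ZT6 to ZT10 and ZT18 to ZT22 (adjusted p = 0.613, 0.13 and 0.278), as did the NAc step from ZT6 to ZT10 at 0.32 (adjusted p = 0.0559). Under that scaling the rhythm of Nr1d1 passed in DMS and DLS (adjusted p = 1.62e-09 and 1.88e-11, where 77 and 1.9% of genes passed).

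The timing of the 2 Rev-erb transcripts can be compared within a library, where a scaling common to all its genes cancels. The NAc values were not whole reads times 1 step per library, and any adjustment made by gene would remain there. The log2 ratio of Nr1d1 to Nr1d2 counts was highest at ZT6 in every region, with medians of -0.66 in NAc (13 libraries, -1.75 to -0.33), -0.25 in DMS (12 libraries, -0.79 to 0.06) and -0.47 in DLS (12 libraries, -0.92 to 0.23). Its lowest median fell at ZT18, at -1.79 in NAc (12 libraries, -2.71 to -0.85), -1.44 in DMS (12 libraries, -1.94 to -1.23) and -1.42 in DLS (12 libraries, -2.15 to -1.21). ZT6 and ZT18 did not overlap in DMS or DLS but overlapped in NAc. In DMS the ratio averaged -0.58 in the lower and -1.16 in the higher class. The higher class held 4 of 12 libraries of ZT6 and 10 of 12 of ZT18. Nr1d1 counts exceeded Nr1d2 counts in 1 library of DMS, 1 of DLS and none of NAc.

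The ratio cycled in each region, with amplitudes of 0.48 ± 0.08 (log2, SE), 0.55 ± 0.06 and 0.60 ± 0.05 in NAc, DMS and DLS (permutation test of times within sex, p = 1e-05 in each, the smallest that 100000 resamples can give). Fitted peaks of Nr1d2 followed those of Nr1d1 by 4.38 h in NAc (95% interval 3.05 to 5.71), 3.90 h in DMS (3.06 to 4.75) and 3.37 h in DLS (2.65 to 4.09). Within the DMS classes the amplitude of the ratio was 0.43 ± 0.06 in the lower and 0.54 ± 0.07 in the higher class. The delay was 2.79 h (1.78 to 3.796) in the lower and 4.12 h (3.09 to 5.14) in the higher class. Each interval lay above 0. Samples were 4 h apart, so these delays are of the size of 1 sampling interval and come from the fitted curves.

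**Figure D3:**
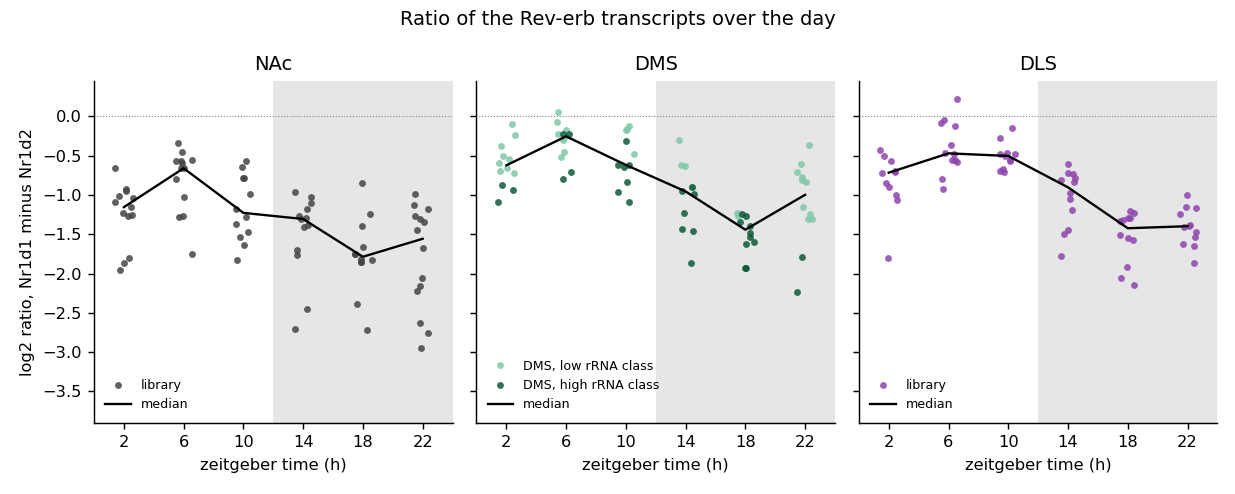
Log2 ratio of Nr1d1 to Nr1d2 counts (vertical axis) by zeitgeber time in h (horizontal axis) in NAc, DMS and DLS; points are libraries, DMS points are shaded by the ribosomal RNA class, lines join medians and grey is the dark phase. Medians are highest at ZT6 and lowest at ZT18 in all 3 regions, and the higher DMS class averages -1.16 against -0.58 in the lower.

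Between regions, the Rev-erb amplitudes were larger dorsally, but no member passed the test of the difference of rhythm. That test was a joint limma fit over 11283 shared genes with the animal as a block, and it called 0% of genes between DMS and NAc, 0.31% between DLS and NAc and 0% between DLS and DMS. The amplitude of Nr1d1 was higher in DLS than in NAc by 0.25 ± 0.07 (log2, SE, adjusted p = 0.0968), and that of Nr1d2 higher in DMS than in NAc by 0.20 ± 0.05 (adjusted p = 0.0763). The first passed with the ribosomal RNA share as a covariate (0.27 ± 0.05, adjusted p = 0.00268, with 0.753% of genes called) and without animal F50 (0.28, adjusted p = 0.0339). The second passed without any 1 of F18, F49, M16, M21 or M47 (lowest adjusted p = 0.0294), but was 0.08 ± 0.04 with a term for the DMS class (adjusted p = 0.547).

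The 95% intervals of the differences in Rev-erb peak time between regions all held 0. Nr1d1 peaked 0.42 h later in DMS than in NAc (95% interval -0.45 to 1.28), and 0.48 h later in DLS than in NAc (-0.31 to 1.28). Nr1d2 peaked 0.51 h earlier in DLS than in NAc, a difference of -0.51 h (-1.61 to 0.60). Between DMS and NAc the peak of Nr1d2 differed by -0.06 h (-1.12 to 1.00). Between DLS and DMS the peak of Nr1d1 differed by 0.07 h (-0.67 to 0.80) and that of Nr1d2 by -0.45 h (-1.28 to 0.38).

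Both sexes showed the Rev-erb rhythm. Nr1d1 amplitudes were 0.52 in females and 0.52 in males in NAc, 0.66 and 0.59 in DMS, and 0.75 and 0.79 in DLS. Nr1d2 amplitudes were 0.27 and 0.28 in NAc, 0.50 and 0.44 in DMS, and 0.45 and 0.37 in DLS. Each passed within its sex (limma, highest adjusted p = 0.00016), where 0.716, 17.9 and 17.8% of genes passed in females and 0.295, 9.92 and 4.4% in males of NAc, DMS and DLS. In DLS at ZT10 Nr1d1 ran from 11.05 to 11.38 in the 6 females and from 11.13 to 11.44 in the 5 males, and at ZT22 from 9.44 to 10.05 and from 9.46 to 9.86 in 6 of each. The sexes overlapped at both times and the times did not.

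The difference of rhythm between the sexes passed for no member and for 0% of genes in any region (limma, adjusted p of the members at least 0.367). The difference of amplitude, male minus female, was 0.00 for Nr1d1 in NAc (95% interval -0.23 to 0.23), -0.08 for DMS (-0.23 to 0.07) and 0.04 for DLS (-0.12 to 0.19), and these intervals are the sizes the data leave possible. For Rorb in DLS the unadjusted p was 0.0162, with fitted peaks at ZT 20.3 ± 1.56 h in females and 3.44 ± 1.44 h in males, but neither sex passed alone (adjusted p = 0.15 and 0.21).

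Levels did not differ between the sexes past the threshold for any member, where 0.0758, 0.909 and 0.202% of genes passed in NAc, DMS and DLS. The difference of Nr1d1, male minus female, was 0.11 ± 0.08 (log2, SE) in NAc, -0.03 ± 0.05 in DMS and 0.03 ± 0.05 in DLS (limma, adjusted p = 0.97, 0.9 and 0.87). With the ribosomal RNA share as a covariate, Nr1d1 in NAc was 0.19 ± 0.06 higher in males and Nr1d2 lower, at -0.11 ± 0.03 (adjusted p = 0.0452 and 0.0384, with 2.78% of genes called). With the range of animal numbers as a term, Nr1d2 in DMS was 0.12 higher in males (adjusted p = 0.0282, with 16.5% of genes called).

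The balance of the Ror transcripts shifted across the striatum in the deposited values. Any adjustment of the NAc values by gene would not cancel in this balance, so its comparisons with NAc carry that limit. The log2 ratio of Rora to Rorb counts had a median of 0.21 in NAc (77 libraries, -0.36 to 0.99), 0.40 in DMS (70 libraries, 0.01 to 0.91) and 0.72 in DLS (70 libraries, 0.38 to 1.03). Rorb counts exceeded Rora counts in 11 NAc libraries and in none of DMS or DLS. The ranges of the 3 regions overlapped.

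Within animals, the ratio of Rora to Rorb was higher in DLS than in NAc by 0.44 ± 0.32 (log2, SD, 57 animals, higher in 50), and higher in DLS than in DMS by 0.27 ± 0.23 (51 animals, higher in 46). It was higher in DMS than in NAc by 0.16 ± 0.35 (63 animals, higher in 44). All 3 differences passed (two-sided permutation test swapping regions within animals, adjusted over 3 pairs, p = 1.5e-05, 1.5e-05 and 0.00053, where 1e-05 before adjustment is the smallest possible). The order of DLS over DMS held within both DMS classes, at 0.33 and 0.23, whereas DMS over NAc was 0.093 in the lower class (34 animals, adjusted p = 0.087) and 0.25 in the higher (29 animals, adjusted p = 0.00159). In these bulk samples, fewer cells of a type and less RNA per cell cannot be told apart.

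**Figure D4:**
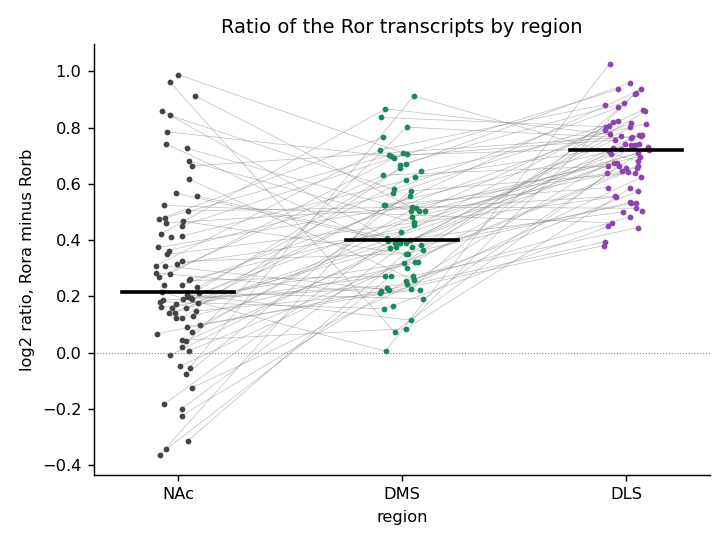
Log2 ratio of Rora to Rorb counts (vertical axis) in NAc, DMS and DLS (horizontal axis); points are libraries, thin lines join regions of 1 animal and black bars are medians. The medians rise from 0.21 in NAc to 0.40 in DMS and 0.72 in DLS.

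For the Rev-erb genes, the log2 ratio of Nr1d1 to Nr1d2 was lower in NAc than in the dorsal regions, with the same limit on the NAc values. It was higher in DMS than in NAc by 0.47 ± 0.55 (log2, SD, higher in 49 of 63 animals) and higher in DLS than in NAc by 0.50 ± 0.60 (46 of 57 animals), each with an adjusted permutation p of 1.5e-05. The size of the DMS difference depended on the class. DMS minus NAc was 0.72 in animals of the lower DMS class, higher in 32 of 34. In the higher class it was 0.19, higher in 17 of 29 (adjusted permutation p = 0.0453). Among animals numbered from 31 it was 0.23 and did not pass (adjusted permutation p = 0.0533). DLS and DMS differed by -0.04 ± 0.49 (29 of 51 animals higher in DLS, adjusted permutation p = 0.552). This last value hid opposite directions, since DLS minus DMS was -0.42 in animals whose DMS library was of the lower class (20 animals, adjusted permutation p = 0.00072) and 0.20 in those of the higher class (31 animals, adjusted permutation p = 0.00062). The difference was -0.34 in animals numbered up to 29 and 0.27 from 31. Class and number were largely entangled, since the higher class held all 26 DMS libraries of animals numbered 31 or above and 7 of those up to 29. Their parts were not tested separately.

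Animals differed from the mean of their sex and time, and for Nr1d1 these deviations were shared between DMS and DLS. Over 51 animals Pearson's r was 0.40 and Spearman's rho 0.38 (permutation, adjusted over 12 relations p = 0.0432 and 0.04). Without the 2 animals farthest from the DMS median r was 0.30, which no longer passed (adjusted p = 0.148). It was 0.37 among 26 animals numbered up to 29 and 0.72 among 25 numbered 31 or higher. Between NAc and DMS, r was 0.29 over 63 animals (adjusted p = 0.0796) and rho 0.39 (adjusted p = 0.0169), with r of 0.28 without the 2 farthest animals. Of the other 10 relations none passed. Rorb between DMS and DLS had r of 0.35 (adjusted p = 0.0756), and Nr1d2 had r of -0.16, 0.07 and 0.08 in the 3 pairs of regions. Between DMS and DLS, r of Nr1d2 was 0.07 among animals numbered up to 29 and 0.47 among those from 31 (permutation, p before adjustment = 0.723 and 0.0174). The deviations were not adjusted for the DMS class, and Nr1d2 averaged 12.01 in the higher and 11.39 in the lower class.

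**Figure D5:**
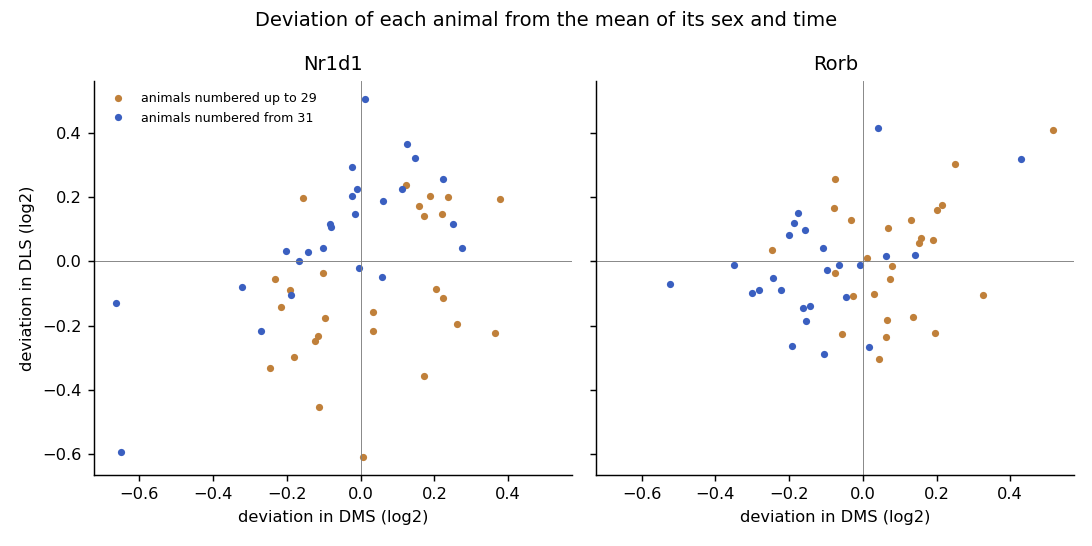
Deviation of each animal from the mean of its sex and time in DMS (log2, horizontal axis) against DLS (log2, vertical axis) for Nr1d1 and Rorb; points are the 51 animals with both regions, coloured by range of animal number. For Nr1d1 the points rise together (r = 0.40), with 2 animals numbered 31 or higher far to the left in DMS.

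Clock genes and genes tied to the receptors were taken from lists of known roles, chosen with earlier results of these data known. Their counts describe these lists and are not an independent test. Among clock genes with ROREs, 2 of 5 measured were rhythmic in NAc, 5 of 5 in DMS and 4 of 4 in DLS, and all 5 passed in DMS with a class term. Of all genes 2.56, 51.3 (25.2 with a class term) and 21% passed in NAc, DMS and DLS. The median amplitude of the RORE list was 0.16, 0.29 and 0.32 (log2), against 0.07, 0.11 and 0.07 over all genes. With a class term the DMS medians were 0.22 for the list and 0.07 over all genes. Arntl, the gene of BMAL1, peaked at ZT 23.9, 23.5 and 23.5 h in NAc, DMS and DLS with folds of 1.69, 1.95 and 2.02 (limma, adjusted p = 6.25e-10, 3.47e-15 and 1.70e-16). Cry1, a clock repressor gene, peaked at ZT 18.9, 18.6 and 19.5 h with folds of 1.49, 1.58 and 1.94 (limma, adjusted p = 1.05e-05, 5.96e-08 and 2.21e-14).

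Npas2 and Clock, which encode partners of BMAL1, passed in DMS and DLS with smaller folds. Npas2 had 1.298 and 1.25 with peaks at ZT 0.8 and 1.7 h, and Clock 1.21 and 1.15 with peaks at ZT 0.1 and 0.6 h. Nfil3, a repressor of D-box genes, passed in DMS (fold 1.50, limma, adjusted p = 0.000858) and was not in the DLS table.

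Clock genes known for E-boxes or D-boxes were rhythmic in 7 of 11 in NAc and 11 of 11 in DMS and DLS. All 11 passed in DMS with a class term. The shares of all genes that passed were 2.56, 51.3 (25.2 with a class term) and 21% in NAc, DMS and DLS. The median amplitude of this list was 0.23, 0.25 and 0.48. With a class term the DMS median was 0.36, against 0.07 over all genes. In DLS the peaks fell at ZT 10.7 h for Usp2, 11.9 for Ciart, 12.0 for Bhlhe40, 12.2 for Dbp, 12.9 for Per1, 13.1 for Cry2, 13.5 for Bhlhe41, 14.2 for Tef, 15.2 for Per3, 15.5 for Hlf and 15.6 for Per2. The fitted peak of Nr1d1, 9.44 h, was earlier than all 11, and that of Nr1d2, 12.8 h, lay between those of Dbp and Per1. In NAc the peaks of Usp2 (8.6 h, not called), Ciart (11.2 h) and Dbp (11.9 h) were the earliest, against 8.96 h for Nr1d1, and in DMS Usp2 (8.42 h) also came before Nr1d1 (9.37 h). The largest fold was that of Ciart, 2.84, 3.91 and 5.54 in NAc, DMS and DLS, and Per2 had 1.90, 2.05 and 3.19.

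Partners of the receptors were tested in the same fit, in which 2.56, 51.3 (25.2 with a class term) and 21% of all genes passed in NAc, DMS and DLS. Genes for turnover of REV-ERB protein passed in 0 of 5, 2 of 5 and 0 of 5, genes of haem synthesis and breakdown in 0 of 11, 3 of 11 and 2 of 10, and coregulators of ROR in 0 of 8, 6 of 8 and 0 of 8 (in DMS 2, 1 and 3 with a class term).

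Other genes known as Rev-erb targets passed in 1 of 5, 3 of 5 (3 with a class term) and 3 of 5. Of all genes 2.56, 51.3 (25.2 with a class term) and 21% passed, so the DMS count without the term is near that share. Fabp7, a fatty acid binding protein of astrocytes, was rhythmic in all regions, with folds of 1.57, 1.42 and 1.47 and peaks at ZT 4.8, 3.9 and 3.9 h (limma, adjusted p = 0.0133, 0.00128 and 0.00271). Cdkn1a, which encodes the cell cycle inhibitor p21, had folds of 1.70 and 1.83 in DMS and DLS with peaks at ZT 10.4 and 8.8 h. Insig2, which encodes a regulator of sterol synthesis, had folds of 1.23 and 1.20 with peaks at ZT 16.7 and 19.7 h.

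Other nuclear receptors passed in 0 of 26 in NAc, 13 of 25 in DMS (10 with a class term) and 9 of 25 in DLS, where 2.56, 51.3 (25.2 with a class term) and 21% of all genes passed. The DMS count without the class term is at that share. The largest amplitudes among those called in both dorsal regions were those of Rarg and Rxrg, retinoid receptor genes, and Ppard, a fatty acid receptor gene. In DLS their folds were 1.34, 1.32 and 1.36, below the 2.91 of Nr1d1 and the 1.76 of Nr1d2. With a class term Rarg and Ppard did not pass in DMS (limma, adjusted p = 0.311 and 0.273).

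Likeness of course was measured by Pearson's r over 36 means of region, sex and time, each centred on its region and sex, among 11283 genes. It describes these means, which share libraries and depth and are not adjusted for the DMS class. For Nr1d1 the 5 genes of highest r were Slc38a3 (0.85), a glutamine transporter gene, Pwwp2b (0.84), Cirbp (0.83), a cold-inducible RNA-binding protein gene, Abhd2 (0.82) and Ano2 (0.81), a chloride channel gene. The 5 of lowest r were Rnpep (-0.87), Gm15459 (-0.86), Rmdn3 (-0.85), Sfxn1 (-0.85) and Fkbp4 (-0.84), a co-chaperone gene, all with fitted peaks between ZT 19.7 and 22.4 h. Of the genes named here for Nr1d1, Slc38a3 and Abhd2 were not called rhythmic in NAc (limma, adjusted p = 0.254 and 0.321). Nr1d2 itself had r of 0.51 with Nr1d1.

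For Nr1d2 the 5 most alike were Slc2a1 (0.91), the glucose transporter gene of the blood-brain barrier, Zfand5 (0.90), the clock repressor Bhlhe40 (0.89), Coq10b (0.89) and Tomm20 (0.88), of the mitochondrial import pore. The 5 of lowest r were Clmp (-0.93), Leo1 (-0.89), Ntng1 (-0.89), Tardbp (-0.89) and Rbm28 (-0.89). Of these genes, Zfand5, Tomm20, Clmp and Tardbp were not called rhythmic in NAc (limma, adjusted p = 0.139, 0.326, 0.134 and 0.0687). For Rora the highest r were lower, from 0.60 (Gm12992) through Ghr, D3Ertd254e and Nucks1 to 0.56 (Papss2). For Rorb they ran from 0.73 (Tmod2) through Tmem229b, Trim44 and Nfia to 0.71 (Zfp579). Rora and Rorb had r of 0.23 with each other.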

How the data were processed

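Bulk RNA was sequenced from punches of NAc, DMS and DLS. Per the labels' design text, reads were aligned to GRCm38 with HISAT2 2.1.0 and counted with HTSeq 0.10.0 in union mode. The authors filtered genes, normalised counts with DESeq2 in each region separately and deposited log2 values. In DMS and DLS the deposited log2 values, less the pseudocount of 1, were whole reads times 1 step per library (tolerance 0.01), which gives the depths printed. In NAc a median of 2.09% of values were whole, so reads could not be recovered from the authors' NAc values and their depth is unknown. Any adjustment of these values by gene would not cancel in a ratio of 2 genes. The submitters' processing notes also name a human build, which the mouse gene identifiers contradict.

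Samples were grouped by region, sex and time from their titles, which also name the animal: 47 animals gave 3 regions, 30 gave 2 and 16 gave 1. Rhythm (cosine and sine of 24 h, with sex), sex differences, steps and region differences were fitted to all genes of a table with limma 3.58.1 (in R 4.3.3) with a variance trend, and p-values adjusted by Benjamini-Hochberg over all genes. Ratios and relations between regions used permutation tests with 100000 resamples. The scripts were tested on simulated data. The alternatives were a class term, a term for 2 ranges of animal number, other scalings, a pseudocount of 8, a minimum mean of 7, no variance trend, a replicate block, time as 6 levels, voom on recovered reads and leaving out each library or animal. After seeing the data, the ribosomal RNA share as a covariate, scaling outside 4 ribosomal RNA genes and fits within a class or number range were added. Clock genes were named where they passed in any region, and from other lists at most 3 of largest amplitude that passed in 2. One list of genes is not reported here. The members and lists were chosen with earlier results of these data known. Promoter sequences are RefSeq's, found for all 4 members. Tables used pandas 2.3.3 and numpy 2.4.6 in Python 3.11.15, and plots matplotlib 3.10.9.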

Additional observations from a re-analysis of the deposited data

Results flagged for a closer look

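In 9 of 144 groups of 1 member, region, sex and time, 1 library stood apart from the rest of its group, and chance alone sets such a library apart in about 1 in 20 groups. Nr1d1 was low in NAc in male 32 at ZT2, at 9.68 (log2) against 10.04 for the next library. Nr1d2 was low in DMS in female 12 at ZT6, at 11.34 against 11.55, and high in DMS in female 49 at ZT22, at 11.64 against 11.24. Rora was high in NAc in female 41 at ZT14, at 10.96 against 10.43, and high in DLS in female 25 at ZT14, at 11.32 against 11.03. It was low in DLS in male 7 at ZT2, at 10.85 against 10.99. Rorb was low in NAc in female 52 at ZT6, at 9.21 against 10.11, and in female 37 at ZT10, at 9.35 against 10.14. It was also low in DMS in male 37 at ZT10, at 10.27 against 10.81. Leaving out animal F49 took the Nr1d2 amplitude difference of DMS and NAc past the threshold (limma, adjusted p = 0.0375), and leaving out the NAc library of female 52 took the Nr1d2 step from ZT6 to ZT10 off it (adjusted p = 0.0525).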

How the results depend on the processing

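Of 545 alternatives to 69 results other than steps between times, 17 changed the call, and of 4495 fits that left out 1 library or animal, 6 did; the cause was not tested. Among animals numbered from 31 alone, the Nr1d2 rhythm in NAc (amplitude 0.19, log2) and the rhythm of the Nr1d1 to Nr1d2 ratio in NAc (0.31) no longer passed. With the ribosomal RNA share as a covariate the sex difference in NAc passed for Nr1d1 (0.19) and Nr1d2 (-0.11), as did the Nr1d1 amplitude difference of DLS and NAc (0.27). With a term for 2 ranges of animal number the sex difference of Nr1d2 in DMS passed (0.12). With an equal sum, Rora and Rorb became rhythmic in DMS (0.16 and 0.24), and the Rora step from ZT18 to ZT22 turned from -0.01 to 0.32. The Rora to Rorb ratio of DMS over NAc was 0.094 among animals numbered up to 29 and 0.093 in the lower DMS class. The Nr1d1 to Nr1d2 ratio of DMS over NAc was 0.23 from animal 31 on. For DLS against DMS it was -0.34 up to animal 29, 0.27 from 31, -0.42 in the lower class and 0.20 in the higher. The Nr1d1 relation of DMS and DLS no longer passed without the 2 farthest animals (0.30) or up to animal 29 (0.37). Leaving out each animal, the amplitude difference ran from 0.23 to 0.28 for Nr1d1 (DLS over NAc) and from 0.18 to 0.21 for Nr1d2 (DMS over NAc). Of the steps, 23 of 600 alternatives changed a call, most under the equal sum.

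Counts of rhythmic genes moved more than the members. In NAc 304 genes passed, against 508 with the ribosomal RNA covariate, 183 with time as 6 levels, 108 with an equal sum and 32 among animals from 31 on. In DMS 6207 passed, against 3051 with a class term, 3459 with the covariate, 3772 with the range term, 2559 and 1235 in the lower and higher number ranges, and 948 and 1811 in the lower and higher class. In DLS 2392 passed, against 1477 with an equal sum outside ribosomal RNA, 216 with an equal sum and 331 up to animal 29. Depth is unknown in NAc, so counting error there could not be given.

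Males and females share animal numbers. Residuals of same-numbered animals had median correlations of -0.13 in NAc (26 pairs), 0.06 in DMS (25) and 0.05 in DLS (24), over 0.1 in 7, 12 and 7 pairs. The correlation within a number that limma estimated over all genes in the rhythm fit was -0.02, 0.23 and 0.15. Same-numbered animals thus shared some variation in DMS and DLS. With the number as a replicate block 323, 4358 and 2044 genes were rhythmic in NAc, DMS and DLS. The block changed 1 call of the members, the Nr1d2 step from ZT2 to ZT6 in DLS (0.30, limma, adjusted p = 0.0502).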
